A study of Mus musculus with 24 samples.

Results

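Elastic fibre and microfibril genes were described in mouse lacrimal gland (LG) and in spheres of cultured lacrimal gland stem cells (LGSCs). The 10 genes were listed by name (Fbn1, Fbn2, Eln, Fbln1, Fbln2, Fbln5, Mfap2, Mfap4, Mfap5 and Emilin1) and matched to Ensembl identifiers among the 63862 genes and assembled loci of each passage 2 or tissue table. They were chosen by the FPKM values of Fbn2 in embryonic and adult LG, which put it among the clearest embryonic genes of these data, so the embryonic and adult levels of Fbn2 are a description and carry no test. All 10 were found in every table, also in the passage 10 table of 52747 genes. RNA of C57BL/6 mice was sequenced from whole adult LG, from embryonic glands of E17.5 and of E19.5 (E, embryonic day; 3 libraries each) and from LGSC spheres of passage 2. The spheres were collected at culture day 5 (2 libraries) and days 7, 10 and 14 (3 each), and 1 library held spheres of passage 10 at day 7. The spheres grew from cells of LGs of 6- to 8-week-old mice in Matrigel with EGF, FGF10, Wnt3A and the ROCK inhibitor Y-27632, with no serum. The labels give no age in weeks for the adult LG and do not say whether embryos were pooled. They also do not say whether numbered libraries came from separate animals or cultures, so p-values measure the spread between these libraries.

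Elastic fibres give tissues their recoil. They form on microfibrils, which are bundles of fibrillin (Fbn1 and Fbn2) carrying small glycoproteins (Mfap2 and Mfap5), and elastin (Eln) is laid onto this scaffold and cross-linked by lysyl oxidases. Fibulins and emilin 1 sit where elastin and microfibrils meet, and fibulin 5 (Fbln5) and Mfap4 bind elastin and help to assemble it. Fibrillin microfibrils also hold latent TGF-beta in the matrix. These proteins are mostly made by mesenchymal cells, such as fibroblasts and smooth muscle cells, and Fbn2 is known as the fibrillin of developing tissues.

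The values are FPKM, a fragment count divided by transcript length and library depth. Of 5333 genes with at least 10 FPKM in the passage 10 library, 50.6% had a day 7 mean under 0.1 times that value. The order of levels between different genes is therefore given only as listed. Low values come in steps of a single read, from which the reads behind each value were recovered. The 20 passage 2 and tissue libraries held 6434734 to 9258020 recovered reads and the passage 10 library 25181804. In adult LG replicates 1 and 2 the recovered reads were 2.667 and 2.567 times the scale of the deposited values, against 0.832 to 1.129 times in the other 18 libraries and 1.059 times in the passage 10 library, and 60.4% and 59.6% of their reads fell on their top 10 genes. Adult replicate 3 (1.103 times and 31.3%) stood apart from both. Each comparison with adult LG is therefore also given after scaling to recovered reads. Acinar markers summed to 171000 to 808000 FPKM in adult LG and at most 121 FPKM in embryonic LG. That gap is mostly Mucl2, which differed by -16.87 in mean log2(FPKM + 1) at E17.5, against -1.66 for Ltf and -0.93 for Lyz2. The acinar marker Bhlha15 was listed at 0 in all 20 libraries. Epithelial markers summed to 595 to 1920 FPKM in spheres of day 7, but Epcam and Krt8 were listed at 0 in all 20 libraries, as was Gapdh. A 0 or a low value in these tables is therefore given only as listed.

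Fbn2 (fibrillin 2; GRCm38 chromosome 18, 58008623 to 58210487, minus strand) separated embryonic LG from every other group. Its level was 89.6, 86.2 and 81.2 FPKM at E17.5 and 63.7, 63.1 and 56.7 FPKM at E19.5, with no overlap between the ages. In adult LG it was listed at 0, 0.0301 and 0.250 FPKM, which were 0, 1 and 20 reads against 4665 to 8707 reads in each embryonic library. The E17.5 mean was 917 times the adult mean, but the adult mean rests on these 21 reads, 20 of them in replicate 3. In spheres Fbn2 lay between 0.0112 and 2.19 FPKM, and every culture day overlapped with adult LG. The day 5 spheres were below all day 7 spheres, and the other culture days overlapped with each other. The other fibrillin, Fbn1, is the main fibrillin of adult connective tissue. It was listed at 0 in 18 of the 20 libraries, with 1 read in E17.5 replicate 1 and 1 read in day 14 replicate 3. In the passage 10 library, made against another gene list, Fbn1 had 277 reads (0.960 FPKM), so its absence from the tissue tables cannot be read as absence from the tissue.

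Mfap2, a small microfibril glycoprotein that binds fibrillin and TGF-beta family proteins, had the highest level of the 10 genes in embryonic LG. It stood at 308.6, 317.7 and 260.3 FPKM at E17.5 and 354.4, 289.4 and 305.1 FPKM at E19.5. Adult LG held 4.11, 4.43 and 15.1 FPKM, with replicate 3 well above the other two, and the spheres 0.446 to 2.09 FPKM on 5 to 21 reads each. At E17.5 the mean of Mfap2, 295.5 ± 30.9 FPKM (SD, n = 3), exceeded 98.5% of the genes averaging 1 FPKM or more. The order was embryonic LG, adult LG and spheres, and the embryonic ages overlapped while the other steps between these kinds of sample did not. After scaling to recovered reads the adult libraries held 1.54, 1.725 and 13.64 FPKM and the spheres up to 2.407 FPKM, so that adult LG and spheres overlapped.

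Mfap4, which is not related to Mfap2 in sequence and binds elastin and collagen, was at 35.6, 35.5 and 23.9 FPKM at E17.5. At E19.5 it was at 16.3, 16.0 and 17.3 FPKM, below every E17.5 library. Adult LG held 1.51, 0.656 and 0.955 FPKM (7, 4 and 14 reads), and all 11 sphere libraries of passage 2 and the passage 10 library were listed at 0. Mfap5, the close relative of Mfap2, was listed at low values throughout. It had 0.680, 0.694 and 0.627 FPKM at E17.5, 0.924, 1.05 and 0.923 FPKM at E19.5 and 0.329 FPKM (9 reads) in adult replicate 3, and it was listed at 0 in the other 2 adult libraries and in all 12 sphere libraries.

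Emilin1, a glycoprotein between elastin and microfibrils that restrains TGF-beta activation, followed the same order as Mfap4. It was at 141.2, 130.4 and 112.2 FPKM at E17.5 and at 101.4, 79.6 and 77.6 FPKM at E19.5, with no overlap. The adult libraries held 7.81, 8.11 and 12.7 FPKM and the spheres of passage 2 held 0.205 to 0.674 FPKM. Eln itself was listed at low values in every tissue: 1.78, 1.36 and 1.57 FPKM at E17.5, 1.31, 1.40 and 1.17 FPKM at E19.5 and 0.717, 0.896 and 2.04 FPKM in adult LG. The 3 tissue groups of Eln overlapped, and the highest value was that of adult replicate 3. In spheres Eln had 1 read in each of 2 day 7 libraries and was listed at 0 in the other 9 of passage 2.

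Fbln1 had the highest level of the 10 genes in spheres. Fbln1, a fibulin of basement membranes and elastic fibres, was at 88.6, 89.6 and 82.6 FPKM at E17.5, 64.7, 59.4 and 59.4 FPKM at E19.5 and 4.65, 9.46 and 17.3 FPKM in adult LG. The spheres of passage 2 ranged from 7.60 to 163.9 FPKM, a range that covers all 6 embryonic libraries and adult replicates 2 and 3. Fbln5 stood at 12.3, 11.4 and 9.15 FPKM at E17.5, 13.9, 13.5 and 14.3 FPKM at E19.5 and 3.96, 4.38 and 9.13 FPKM in adult LG, against 0.613 to 3.78 FPKM in spheres. Adult replicate 3 was just under the lowest E17.5 library, and every sphere library was below every adult library as deposited. After scaling to recovered reads the adult values of Fbln5 were 1.484, 1.707 and 8.273 FPKM, and the spheres, at up to 4.355 FPKM, overlapped with them. Fbln2 was at most 0.381 FPKM in the 20 libraries, on 1 to 20 reads, and 2.67 FPKM (405 reads) in the passage 10 library.

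**Figure D1:**
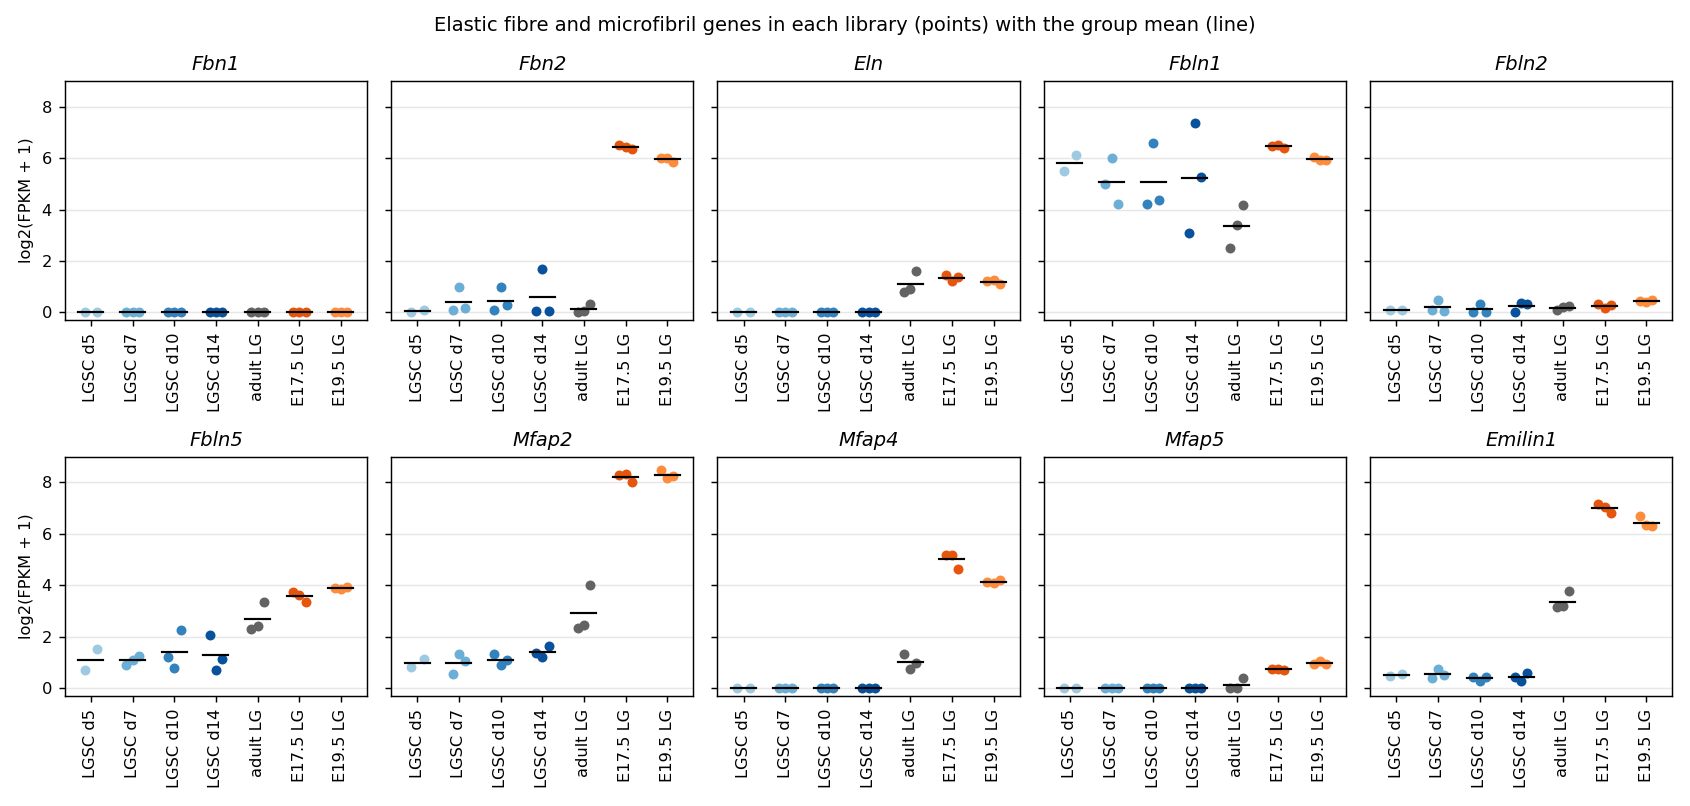
Level of each of the 10 genes as log2(FPKM + 1), 1 point per library and a line at the group mean, for LGSC spheres of passage 2 (d, culture day), adult LG and LG of both embryonic ages. Fbn2, Mfap2, Mfap4 and Emilin1 are high only in the 6 embryonic libraries among these groups, while Fbln1 spans 7.60 to 163.9 FPKM in spheres.

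Embryonic LG was compared with adult LG to describe which parts of the elastic fibre are made at higher levels during gland growth. Differences are of mean log2(FPKM + 1) from 1 limma fit of the 9 tissue libraries over genes averaging 0.5 FPKM or more, a scale that understates the change of low genes. Fbn1 and Fbln2 did not pass that filter. Mfap5 passed it only through its embryonic level, so its call carries no weight. At E17.5 the difference from adult LG was 6.31 (SE 0.136) for Fbn2, 5.27 (SE 0.395) for Mfap2, 3.999 (SE 0.206) for Mfap4, 3.64 (SE 0.208) for Emilin1 and 3.10 (SE 0.356) for Fbln1. It was 0.88 (SE 0.261) for Fbln5, 0.60 (SE 0.147) for Mfap5 and 0.26 (SE 0.213) for Eln. In mean FPKM, Mfap2 was 37.6 times, Mfap4 30.4 times, Emilin1 13.4 times, Fbln1 8.30 times and Fbln5 1.88 times the adult level, and Eln 1.29 times. After scaling to recovered reads these ratios were 54.2, 58.2, 22.5, 12.8, 2.96 and 1.97, so that Mfap4 came before Mfap2.

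At E19.5 the differences were 5.83 for Fbn2, 5.37 for Mfap2, 3.12 for Mfap4, 3.07 for Emilin1, 2.60 for Fbln1, 1.201 for Fbln5, 0.84 for Mfap5 and 0.09 for Eln, with the same standard errors. Both embryonic ages were set against the same 3 adult libraries. Of the 7 genes other than Fbn2 that could be tested, 6 had an adjusted p under 0.05 and were higher at each age, with Mfap5 among these 6, and Eln was not called. In a fit of only the 6 libraries of E17.5 and adult LG, Mfap5 was under the filter and 4 of 6 were called higher (Fbln1, Mfap2, Mfap4 and Emilin1). The background was high: 29.1% of all 18578 genes tested were called higher at E17.5 and 30.3% at E19.5. Every library was higher than every adult library in 32.3% of the genes tested at E17.5 and in 33% at E19.5. As the genes were chosen with this contrast known, nothing further is read from the counts.

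Scaling to recovered reads moved the median difference of all genes from 0.05 to 0.64 at E17.5 and from 0.09 to 0.58 at E19.5, and the differences of the members moved unequally. At E17.5 the difference became 6.03 for Mfap2, 4.49 for Emilin1, 4.43 for Mfap4, 3.92 for Fbln1, 1.63 for Fbln5 and 0.63 for Eln, while that of Fbn2 was 6.38 and that of Mfap5 0.63. The same 6 genes were called higher at both ages, where 48.5% and 46.3% of all genes then were. The split of all genes into higher and lower at E17.5 went from 5405 and 4634 to 8450 and 1913. The calls of Eln and Fbln5 changed with single libraries, and that of Eln also with the method. Limma-voom on recovered reads called Eln higher at E17.5, where 7291 of all 14601 genes were called higher, and did not call it at E19.5. Without adult replicate 3 Eln was called higher at both ages (0.51 at E17.5 and 0.34 at E19.5). Against replicate 3 alone, a fit added after the data were seen in which that lone library is taken to vary like the other groups, Eln differed by -0.25 from adult LG at the earlier age and by -0.41 at E19.5, and was called lower at E19.5. The difference of Fbln5 at E17.5 was 0.23 and not called, and it was also not called at that age without adult replicate 1 or 2, without E17.5 replicate 1 or 2, or with only the 6 libraries of both groups. Mfap2, Mfap4, Emilin1 and Fbln1 were called higher at E17.5 in each of these fits.

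**Figure D2:**
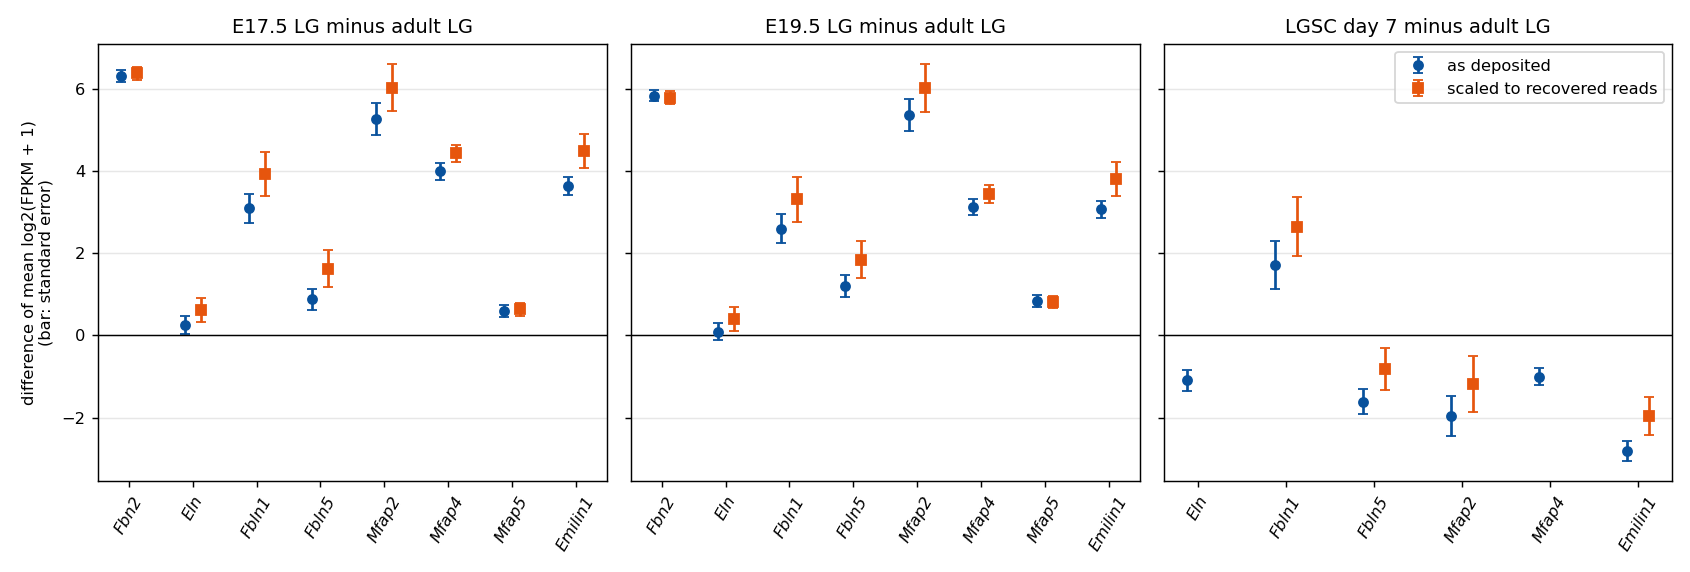
Difference of mean log2(FPKM + 1) from adult LG for both embryonic ages of LG and for LGSC spheres of day 7, as deposited (circles) and after scaling to recovered reads (squares), with standard errors as bars. All 8 genes shown lie above 0 in the embryonic panels, led by Fbn2 and Mfap2, and in the day 7 panel only Fbln1 lies above 0; Eln and Mfap4 fell under the filter there after scaling.

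Markers of mesenchyme moved with these genes. The 10 fibroblast and mesenchyme markers summed to 4930 to 5790 FPKM at E17.5, 4920 to 5900 at E19.5, 182 to 369 in adult LG and 0.838 to 5.94 in spheres of passage 2. Of the 9 markers tested, 8 were called higher at E17.5 than in adult LG and all 9 at E19.5, where 29.1% and 30.3% of all genes were. Pdgfra and Col1a2 (adult means 0.276 and 0.222 FPKM) passed the filter only through their embryonic level, so their calls carry no weight. Col1a1, the main chain of type I collagen, went from a mean of 48.5 FPKM in adult LG to 2011 FPKM at E17.5. Pdgfrb, a defining marker of that list, averaged under 0.1 FPKM over the 20 libraries. Smooth muscle and mural cell markers summed to 134 to 639 FPKM in adult LG, 193 to 341 at E17.5 and 1080 to 1150 at E19.5. The 6 tested went both ways against adult LG, from -3.65 (Cnn1) to 3.27 (Cspg4) at E17.5 and from -2.48 (Cnn1) to 2.81 (Cspg4) at E19.5. Notch3 was listed at 0 in all 20 libraries and Myh11 averaged under 0.1 FPKM. Cartilage and bone markers summed to 76.9 to 103 FPKM at E17.5 against at most 0.259 in adult LG, and skeletal muscle markers to 10.5 to 32.3 against at most 2.08. The part of these cell types in the levels of the elastic fibre genes was not tested, and in whole tissue fewer cells of a type and less RNA per cell cannot be told apart.

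**Figure D3:**
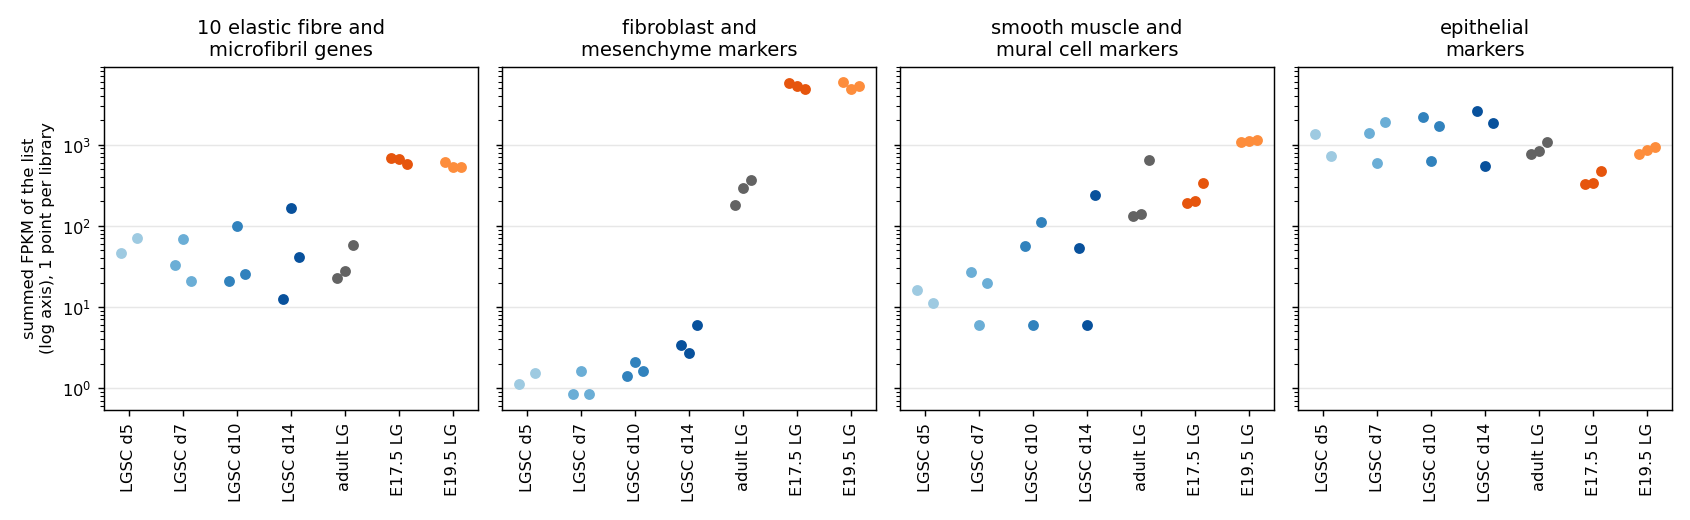
Summed FPKM on a log axis of the 10 elastic fibre and microfibril genes and of 3 marker lists, 1 point per library, by group. The mesenchyme markers sum to 4920 to 5900 FPKM in embryonic LG, 182 to 369 in adult LG and at most 5.94 in spheres, whereas the elastic fibre genes sum to 12.7 to 168 FPKM in spheres, most of it Fbln1.

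The embryonic ages were then compared with each other. The embryonic level of Fbn2 was used to choose the genes, so its difference is given without a test. Fbn2, Fbln1, Mfap4 and Emilin1 had every E19.5 library below every E17.5 library, as did 15.3% of all genes tested. Fbln5, Mfap5 and the untested Fbln2 had every E19.5 library above, as did 19.8% of all genes, and Eln and Mfap2 overlapped. In the fit of all 9 tissue libraries none of the 7 other members tested was called, where 1.74% of all genes (323) were. Of these 7, 2 had an unadjusted p under 0.05, as did 15.3% of all genes. Limma-voom on recovered reads also called 0 of the 7, with 2 at an unadjusted p under 0.05, as were 11% of all genes. The limma values were -0.87 for Mfap4 (SE 0.206, adjusted p = 0.0808) and -0.57 for Emilin1 (SE 0.208, adjusted p = 0.236), from limma with Benjamini-Hochberg adjustment. Fbn2 differed by -0.48 (SE 0.136). Mfap2 differed by 0.10 (SE 0.395), and after scaling to recovered reads by -0.02.

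This outcome depended on the adult libraries, which share the estimate of the spread and take no part in the difference. Without adult replicate 3, Mfap4 and Emilin1 were called lower at E19.5, where 3.65% of all genes were called lower. Without adult replicate 1 only Mfap4 was. With the 6 embryonic libraries alone, a fit added after the data were seen, 3 of the 7 were called lower against 4.67% of all genes. These were Fbln1 (-0.50, SE 0.0738, adjusted p = 0.0120, limma), Mfap4 (-0.87, SE 0.158, adjusted p = 0.0205) and Emilin1 (-0.57, SE 0.136, adjusted p = 0.0420). In mean FPKM these are 0.703, 0.523 and 0.674 times the E17.5 level, and Fbn2 was 0.714 times that level. Fbln5 (0.32, SE 0.114, adjusted p = 0.114) and Mfap5 (0.24, SE 0.103, adjusted p = 0.177) were not called in that fit.

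**Figure D4:**
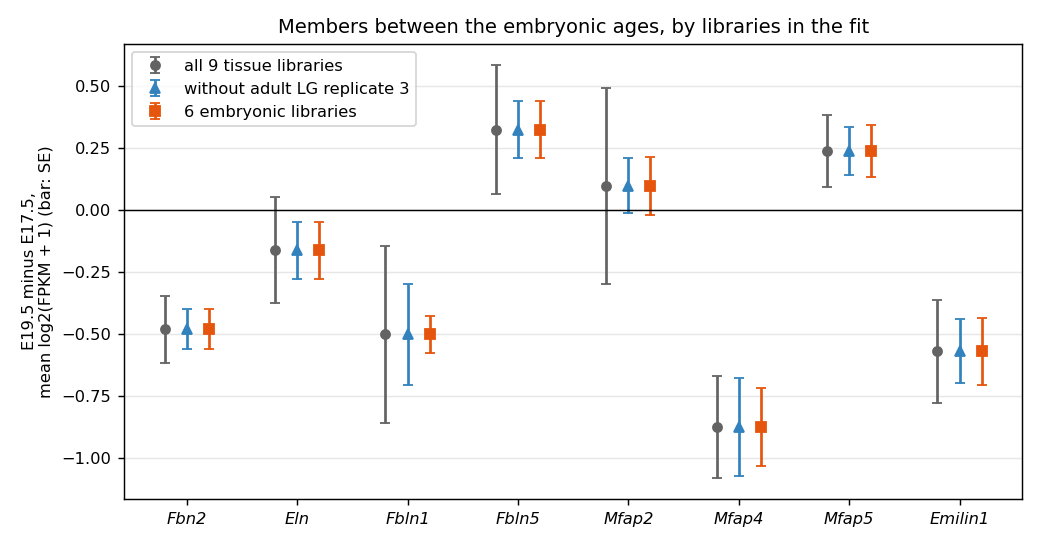
Difference of mean log2(FPKM + 1), E19.5 minus E17.5, for the 8 members that passed the filter, with standard errors from fits of all 9 tissue libraries (circles), without adult replicate 3 (triangles) and of the 6 embryonic libraries (squares). The differences are the same in each fit, and the bars shorten when the adult libraries leave it, from 0.356 to 0.0738 for Fbln1.

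The summed mesenchyme markers, which are mostly Col1a1 and Col3a1, overlapped between these ages at 4930 to 5790 and 4920 to 5900 FPKM. Of single markers, Thy1 (mean 14.65 FPKM at E17.5 and 31.23 at E19.5) and Vim (7.178 and 8.283) had every E19.5 library above every E17.5 library. None of 9 was called in the fit of 9 tissue libraries, in which no member was called either. Acinar marker sums also overlapped, at 75.6 to 120 and 91.8 to 121 FPKM. The sums of the remaining lists did not overlap. Epithelial markers summed to 330 to 472 FPKM at E17.5 and 759 to 950 at E19.5, but 6 of these 8 averaged under 1 FPKM at each age. The 2 epithelial markers tested differed by 0.08 and 1.615. Smooth muscle markers summed to at most 341 and at least 1080 FPKM, and cartilage and bone markers to at least 76.9 and at most 12.5 FPKM. Single smooth muscle markers differed by -0.46 to 2.49, and none of the 6 tested was called, where 1.74% of all genes were. In that fit 1 of 2 epithelial markers was called higher at E19.5. Called lower were 1 of 2 cartilage and bone markers and 1 of 4 skeletal muscle markers. Skeletal muscle markers went from 10.5 to 32.3 FPKM to 5.04 to 7.14, and nerve and Schwann cell markers from 44.6 to 53.7 to 34.4 to 42.6 FPKM. Leukocyte markers (9.45 to 12.5 and 18.5 to 22.0 FPKM) and endothelial markers (142 to 179 and 183 to 233 FPKM) were higher at E19.5. Whether these levels bear on Fbn2, Fbln1, Mfap4 or Emilin1 was not tested.

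LGSC spheres of day 7 were compared with the adult gland from which such cells were taken, in a fit of these 6 libraries. Fbln5 (-1.61, SE 0.312, adjusted p = 0.00936) and Mfap2 (-1.96, SE 0.486, adjusted p = 0.0223) were lower in spheres by limma. Of all 17698 genes, 21.1% were called lower and 14.2% higher. Eln (mean 0.00971 FPKM in spheres and 1.218 in adult LG) and Mfap4 (listed at 0, and 1.04 in adult LG) were also called lower, which made 5 of 6, but they passed the filter only through their adult level and nothing is read from their calls or from that count. Emilin1 also passed it through its adult level, at 0.328 to 0.674 FPKM in spheres against 7.81 to 12.7 FPKM. Fbln1 lay the other way, with 31.01, 63.4 and 17.7 FPKM in spheres against 4.65, 9.46 and 17.3 FPKM in adult LG. The groups of Fbln1 nearly met, and its difference of 1.72 (SE 0.583, adjusted p = 0.0611, limma) was not called. Without adult replicate 3 Fbln1 was called higher (2.14, adjusted p = 0.0337, limma), and Eln and Mfap4 fell under the filter. Without day 7 replicate 1 or replicate 3, Mfap2 was not called. Fbn2 is given without a test: 0.0825, 0.964 and 0.117 FPKM in spheres of day 7.

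After scaling to recovered reads the median of all genes moved from -0.08 to 0.60, and the split of all genes turned from 2507 higher and 3731 lower to 5490 higher and 1754 lower. Fbln1 was then called higher (2.65, SE 0.711, adjusted p = 0.0227, limma), as were 33.4% of all genes. Emilin1 differed by -1.97 (SE 0.471) and was called lower, as were 10.7%. Its scaled sphere mean of 0.5145 FPKM was barely above the filter, so nothing is read from that call. Fbln5 (-0.82) and Mfap2 (-1.18) kept their sign and were no longer called, and Eln and Mfap4 fell under the filter. The mesenchyme markers summed to 0.838 to 1.61 FPKM in these spheres against 182 to 369 in adult LG, and endothelial markers to at most 0.515 against at least 72.7, and their part in the differences of Emilin1, Mfap2, Fbln5, Eln and Mfap4 was not tested.

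Across culture days no member was called. The slope of log2(FPKM + 1) per day was -0.03 for Fbln1 (SE 0.105), 0.03 for Fbln5 (SE 0.0450) and 0.05 for Mfap2 (SE 0.0237), and none of these 3 members that passed the filter was called or had an unadjusted p under 0.05, against 2.14% of all 15584 genes called. Between day 7 and day 14 none of 4 members was called by limma, and none had an unadjusted p under 0.05. Of all 15744 genes, 0% were called there and 1557 had an unadjusted p under 0.05, and limma-voom on recovered reads also called 0. The intervals are wide: the day 14 difference of Fbln1 was 0.16 with an SE of 1.07.

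Sphere libraries differed by their replicate number. Libraries of the same number deviated together across the culture days (correlation 0.260 to 0.719 over 15 pairs, mean -0.217 between different numbers). In the libraries numbered 2, Fbln1 was at 67.8, 63.4, 95.3 and 163.9 FPKM at days 5, 7, 10 and 14. In those numbered 1 it was at 44.3, 31.01, 17.46 and 7.60 FPKM. In those numbered 3 it was at 17.7, 19.9 and 37.2 FPKM from day 7. The values of number 1 are lower at each later day, and those of number 2 are higher at day 14 than at day 7. With the number as a block the slope of Fbln1 was -0.01 (SE 0.0661), still not called.

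Fbn2 was also highest in the libraries numbered 2 at every culture day. They held 0.0703, 0.964, 0.979 and 2.19 FPKM (5, 79, 79 and 204 reads), against 0.0112 to 0.232 FPKM (1 to 21 reads) in the other 7 libraries. Fbln2 showed 19, 13 and 16 reads in number 2 at days 7, 10 and 14, against 1 to 4 in the others of those days except day 14 number 3 with 13. Fbln5 had its lowest values of day 10 (0.714 FPKM) and day 14 (0.634 FPKM) in number 2. Depth was alike in these libraries, at 7406079 to 7767035 recovered reads in number 2 and 7201154 to 8025470 in the others. Epithelial markers summed to 550 to 731 FPKM in number 2 against 1360 to 2630 in numbers 1 and 3, smooth muscle markers to 6.05 to 11.1 against 16.0 to 242, and fibroblast markers to 1.52 to 2.68 against 0.838 to 5.94. Nerve and Schwann cell markers summed to 66.6, 144, 50.2 and 8.22 FPKM in number 2 at days 5, 7, 10 and 14, against 1.93 to 15.3 FPKM in the others. At each culture day 4 of these 5 genes averaged under 1 FPKM, so the sums are not read as a sign of that cell type. The 3 tested at day 7 went both ways against adult LG, from -2.49 to 3.30. The part of these differences in Fbln1 and Fbn2 was not tested.

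**Figure D5:**
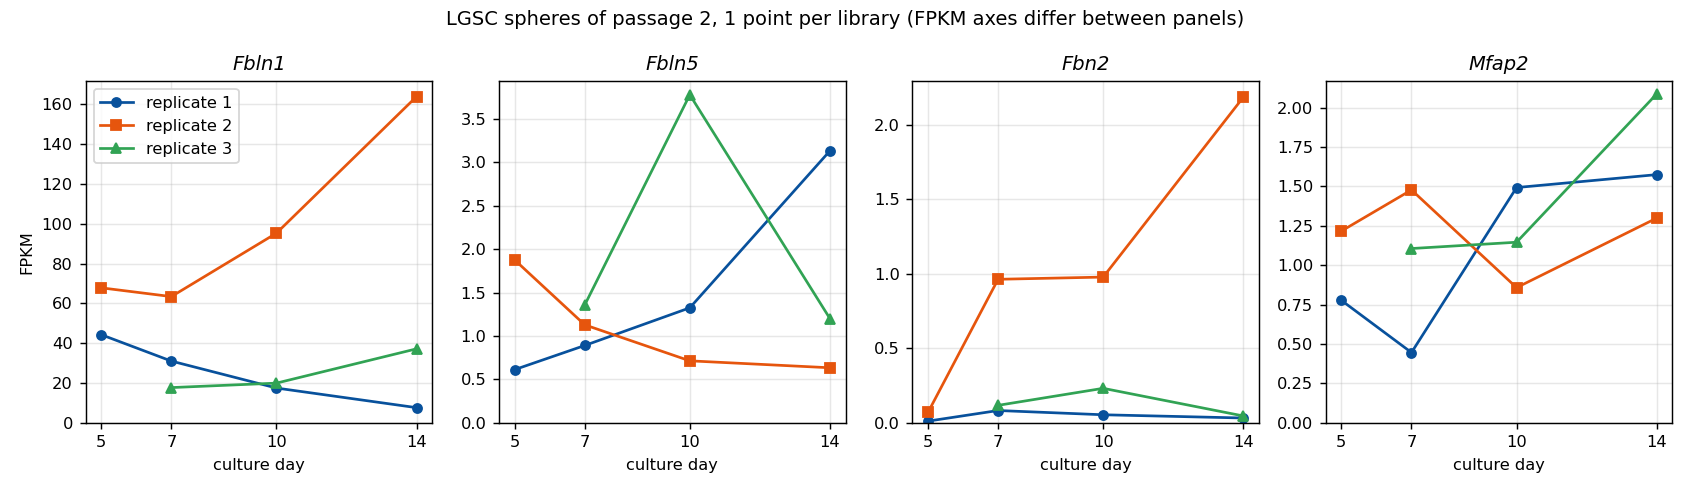
FPKM of Fbln1, Fbln5, Fbn2 and Mfap2 in LGSC spheres of passage 2 by culture day, 1 point per library, with libraries of the same replicate number joined by a line and an FPKM axis for each panel. Replicate 2 lies highest for Fbln1 and Fbn2 at each day and reaches 163.9 and 2.19 FPKM at day 14, while Mfap2 is at most 2.09 FPKM in all 11 libraries.

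The single passage 10 library, which allows no test and rests on another gene list, held 9.82 FPKM of Fbln1, below the 17.7 to 63.4 FPKM of passage 2 at day 7. Emilin1 (0.111 FPKM) and Fbln5 (0.0852 FPKM) were also under the day 7 range. Mfap2 (0.521 FPKM) was within it, and Fbn2, Eln, Mfap4 and Mfap5 were listed at 0. Of 5333 genes with at least 10 FPKM in that library and present in both gene lists, 50.6% had a day 7 mean under 0.1 times that value, so differences between these tables are not read as differences between passages.

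The wider elastic fibre pathway was described with a list of 34 genes for cross-linking enzymes, other fibulins and emilins, latent TGF-beta binding proteins, TGF-beta ligands, ADAMTS proteins, proteoglycans and elastin-degrading proteases. At E17.5, 12 of the 22 genes tested were called higher than in adult LG and 5 lower, where 29.1% of all genes were higher and 24.9% lower. At E19.5 these were 11 and 4, where 30.3% were higher and 23.9% lower. Among the genes called, Thsd4, Efemp2, Emilin3 and Elane, and Adamts6 at E17.5, passed the filter only through their embryonic level. Mmp12 and Adamtsl2 passed it only through their adult level. Nothing is read from these calls or from the counts that hold them. The median difference of the list was 0.90 and 1.05, beside 0.05 and 0.09 over all genes. These medians hold the same genes, so nothing is read from them either. The largest rises at E17.5 were in Vcan (6.31, SE 0.235), a proteoglycan that binds fibrillin, Adamts17 (5.22, SE 0.259) and Thsd4 (3.93, SE 0.185), an ADAMTS-like protein of microfibrils. Their mean levels were 217.6, 57.8 and 19.0 FPKM against 1.85, 0.554 and 0.320 FPKM in adult LG. As Thsd4 passed the filter only through its embryonic level, its rise is a description. The same 3 genes led at E19.5. After scaling to recovered reads the counts were 16 and 2 at E17.5, where 48.5% of all genes were higher and 11% lower, and 13 and 1 at E19.5, where these shares were 46.3% and 10.6%.

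Among the cross-linking enzymes, Loxl1, which acts on elastin, was at 81.4, 82.7 and 82.1 FPKM at E17.5 and 124, 113 and 122 FPKM at E19.5, against 5.03, 8.13 and 11.9 FPKM in adult LG. Loxl2 and Ltbp3 were listed at 0 in all 20 libraries and Lox averaged under 0.1 FPKM. Emilin2, a relative of Emilin1, was at 81.4, 77.5 and 94.4 FPKM at E17.5, 132, 120 and 121 FPKM at E19.5 and 5.41, 12.1 and 9.76 FPKM in adult LG. The lowest differences at E17.5 were in Ctss (-3.60, SE 0.284), a cathepsin of macrophages that degrades elastin, Mmrn2 (-1.68, SE 0.306), an emilin relative of vessels, and Fbln7 (-1.31, SE 0.272). Mmrn2 and Fbln7 were not called after scaling to recovered reads or by limma-voom. Mmp12 (-1.55) lay below Fbln7 but under 1 FPKM on average. Leukocyte markers summed to 17.1 to 29.7 FPKM in adult LG and 9.45 to 12.5 at E17.5, and their part in the level of Ctss was not tested. Between the embryonic ages only Emilin3 was called in the fit of 9 tissue libraries, lower at E19.5 (-1.09, SE 0.215, adjusted p = 0.0490, limma), where 1.74% of all genes were called. It was not called after scaling to recovered reads. Without adult replicate 3, Mmrn2 and Ctss were also called, both higher at E19.5. With the 6 embryonic libraries alone Loxl1, Emilin2, Mmrn2 and Ctss were called higher and Emilin3 lower, where 1335 of all 17311 genes were higher and 809 lower.

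In spheres of day 7, 4 of 17 wider genes were called higher than in adult LG and 8 lower, where 14.2% and 21.1% of all genes were. After scaling to recovered reads these were 5 and 5, where 33.4% of all genes were higher and 10.7% lower. Vcan (2.41, SE 0.332), Tgfb1 (1.97, SE 0.225) and Tgfb3 (1.89, SE 0.582) rose most (adjusted p = 0.00274, 0.00140 and 0.0457, limma). Tgfb1 stood at 72.5, 62.1 and 75.6 FPKM in spheres against 14.6, 15.9 and 21.5 FPKM in adult LG. Ctss, Bgn and Mmrn2 fell most (-7.42, -5.02 and -4.14). Ctss and Bgn, with means of 0.0265 and 0.0867 FPKM in spheres, passed the filter only through their adult level. So did Loxl3, Fbln7, Emilin2 and Adamtsl2 among the genes called lower, and nothing is read from these calls or counts. Efemp1, the fibulin related to Fbln5, was at 52.8 to 280 FPKM in the 11 sphere libraries and 36.0 to 110 FPKM in adult LG, and it was not called at day 7. Efemp2, a fibulin needed to bring lysyl oxidase to elastin, was at 3.71, 1.93 and 3.71 FPKM in spheres against 0, 0.119 and 1.04 FPKM in adult LG, and it passed the filter only through its sphere level. Over culture days and between day 7 and day 14 none of the 13 wider genes tested was called by limma. With the replicate number as a block, Loxl1 and Adamtsl4 were called higher over culture days, as were 330 of all 15584 genes. Adamtsl4 (mean 0.361 FPKM at day 7 and 1.03 at day 14) passed the filter only through the later days, so nothing is read from its call.

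The genes whose pattern over the 7 groups was closest to that of Fbn2 were Prss35, Col26a1, Rtl3, Bex1 and Bex4. Likeness was the root-mean-square difference of centred mean log2(FPKM + 1) over the group means, among 13689 genes averaging 1 FPKM or more, and it was 0.234, 0.252, 0.256, 0.300 and 0.408. The levels of Prss35 at E17.5 and E19.5 were 61.9 and 40.9 FPKM, with at most 0.152 FPKM in any other group, and those of Col26a1 were 79.4 and 39.1 FPKM with at most 0.159 FPKM. Of the other members, Mfap4 (0.822) and Mfap2 (0.834) came closest, at ranks 49 and 54, then Emilin1 at rank 123, Fbln5 at 727 and Fbln1 at 1753. The group means share their libraries.

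Promoter sequences of 6 of the 10 genes were found in RefSeq (GRCm38.p6). Of these, Mfap2 had the highest level of the 10 in embryonic LG and Fbln1 the highest in spheres. Fbln5 was higher in every tissue library than in every sphere library of passage 2, as deposited. The sequences of these 3 are shown. Each is the 250 bases before the RefSeq start nearest to the GENCODE start, 5′ to 3′ on the strand of the gene, without the last 6 bases for Mfap2, which GENCODE places in an exon. Capitals mark matches on either strand to the GC box (GGGCGG), the CCAAT box, the TATA box (spelled TATAAA), the E-box (CANNTG) or the CArG box.
Mfap2, chr4:141010174-141010417, plus strand: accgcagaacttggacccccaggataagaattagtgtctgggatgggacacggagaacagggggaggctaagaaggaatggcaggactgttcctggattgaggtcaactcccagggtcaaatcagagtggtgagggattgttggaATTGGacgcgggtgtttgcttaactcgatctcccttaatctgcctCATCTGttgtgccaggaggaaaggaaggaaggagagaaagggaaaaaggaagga
Fbln1, chr15:85205699-85205948, plus strand: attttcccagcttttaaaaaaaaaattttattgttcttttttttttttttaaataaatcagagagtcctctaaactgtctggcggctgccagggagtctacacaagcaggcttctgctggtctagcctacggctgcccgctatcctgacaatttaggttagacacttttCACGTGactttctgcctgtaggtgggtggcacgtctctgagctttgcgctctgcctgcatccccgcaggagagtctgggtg
Fbln5, chr12:101819120-101819369, minus strand: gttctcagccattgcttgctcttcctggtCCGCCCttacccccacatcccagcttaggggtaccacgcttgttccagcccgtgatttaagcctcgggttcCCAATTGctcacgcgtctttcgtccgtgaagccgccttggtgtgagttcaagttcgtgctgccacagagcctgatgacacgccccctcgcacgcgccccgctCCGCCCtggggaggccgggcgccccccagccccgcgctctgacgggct
Mfap2 holds 1 CCAAT match and 1 E-box, Fbln1 1 E-box, and Fbln5 2 GC boxes with a CCAAT match that overlaps an E-box. None of the 3 holds TATAAA or a CArG box. Over all 32851 promoter windows of this length, 32.7% hold a GC box, 33.8% CCAAT, 12.4% TATAAA, 66.2% an E-box and 1.47% a CArG box. The share of G and C was 51.2%, 46.4% and 65.2% for Mfap2, Fbln1 and Fbln5, against a median of 52.4%.

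The exons of Fbln1, Fbln2, Fbln5, Mfap2, Mfap5 and Emilin1 share no base with another GENCODE gene, those of Fbn2, Eln and Mfap4 share 0.976%, 3.3% and 4.63% with genes on the other strand, and those of Fbn1 share 20.1%. For Fbn2 whole reads were recovered only with a transcript length of 10480 bases in place of 13215, so its level rests on the shorter gene model.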

How the data were processed

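RNA-seq of 21 libraries was analysed, of 24 listed. Day 5 replicate 3 and the passage 6 and passage 20 spheres were not analysed here. The deposited tables of the authors give 1 value per gene, read as FPKM from the values and the study's methods. The submitters' processing notes name CASAVA 1.8, HISAT2 2.0.5 and featureCounts 1.5.0-p3, and the build NCBIM37. Symbols, positions and lengths came from GENCODE M21 (GRCm38), which held 52489 of the 52636 Ensembl identifiers. Whether counting used strand is not given in the sources used here.

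Whole reads were recovered from the steps of low FPKM values (92.6% to 93.6% of values whole within 0.01 reads, up to 1000 reads). Groups were compared with limma 3.58.1 (R 4.3.3, trended variance) on log2(FPKM + 1), for genes averaging 0.5 FPKM or more, with Benjamini-Hochberg adjustment over all genes tested and a threshold of 0.05, and the procedure was tested on simulated data. Tissue comparisons used the 9 tissue libraries, day 7 against adult LG and day 14 against day 7 the 6 libraries compared, and the slope the 11 sphere libraries. Alternatives were a pseudocount of 0.1, no filter, 2 other scalings, limma-voom on recovered reads, other library sets, log2 culture day, a replicate block and leaving out each library.

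Same-numbered sphere libraries deviated together (mean correlation 0.457 over 15 pairs, all above 0.1), so the numbers pair the spheres. The numbers come from the sample titles. All members are named. From the wider list the 3 called genes with the largest rise and the 3 with the largest fall at a mean of at least 1 FPKM were named, and genes outside this rule (Loxl1, Adamtsl4, Emilin2, Efemp1, Efemp2, Lox, Loxl2, Ltbp3 and Mmp12) were chosen after their values were seen. The members and lists were chosen with earlier results of these data known. Figures were drawn with matplotlib 3.10.9.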

Additional observations from a re-analysis of the deposited data

How the results depend on the processing

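The number of members called stayed within 1.5 times under 91 other settings and not under 6. Between E19.5 and E17.5, where 0 members were called, leaving out 1 library gave 0 to 3 (1 without adult replicate 1 and 3 without adult replicate 3), and the 6 embryonic libraries alone gave 4, with Fbn2, whose call carries no weight, among the 3 and the 4. Between day 7 spheres and adult LG the 5 members called became 2 after scaling to recovered reads and 3 to 4 when 1 library was left out. These counts include Eln, Mfap4 and Emilin1 where they passed the filter. The cause was not tested. Of single differences, 14 changed sign, none of them for a member called in the comparison. Eln against adult LG ranged from -0.068 to 0.34 at E19.5 over fits without 1 library, and was -0.25 (E17.5) and -0.41 (E19.5) without adult replicates 1 and 2. Mfap2 between the embryonic ages was -0.015 after scaling to recovered reads and -0.018 by limma-voom. The slope of Fbln1 was 0.025 over days 7, 10 and 14 and ranged from -0.15 to 0.071 without 1 library, and that of Fbln5 ranged from -0.0073 to 0.063. Between day 14 and day 7, Fbn2 was -0.38 by limma-voom, Fbln1 was -0.43 without the spheres numbered 2, and without 1 library Fbln5 ranged from -0.16 to 0.51 and Fbln1 from -0.90 to 1.23. Of all genes, those called went from 323 to between 40 and 2144 (E19.5 against E17.5), from 334 to between 0 and 783 (slope) and from 6238 to between 3770 and 8135 (day 7 against adult LG).

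With the replicate number as a block, the slope was called for 783 genes in place of 334, and no member's call changed in any comparison. Same-numbered tissue libraries did not deviate together (mean correlation -0.00945 over 9 pairs), nor did day 7 and adult libraries (0.00733 over 3 pairs), and the block gave 100 in place of 323 genes between the embryonic ages.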
